A study of Mus musculus with 4 samples.

Results

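The genes were read out together as the inflammatory and regulatory cytokines of the injured muscularis: the cytokines Tnf, Il6, Osm, Il10, Il12b and Il23a, and the regulators Tnfaip3, Nfkbia and Nfkbiz, called the inhibitors for short. They were chosen by name and not by their values, though with earlier results of these data known. They make up 9 of the 16308 genes detected in the series. Each was followed through 4 single-cell libraries and through leukocyte classes gated by marker genes. The libraries held CD45+ cells sorted from the muscularis, the outer muscle layer, of the mouse small intestine after intestinal manipulation, a surgical handling of the bowel that sets off muscularis inflammation. C57BL/6J wild type (WT) mice and Ccr2-/- mice (CCR2 KO, strain B6.129S4-Ccr2tm1Ifc/J), all 12 weeks old, were sampled 24 h and 72 h post-injury, with 1 library per genotype and time. Blood monocytes are released from the marrow to sites of inflammation through the chemokine receptor CCR2, and its gene is disrupted in all cells of the KO mice, not only in monocytes. Every animal had been operated on, so no library describes the uninjured muscularis. Because each library was prepared from several mice and no second library exists for any group, a difference between libraries cannot be told apart from a difference between pools of mice or preparations, and no test was made.

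TNF, IL6 and oncostatin M (Osm) are cytokines that activated myeloid cells release early in inflammation. IL10 restrains the cytokine output of Mφs. Il12b encodes the subunit shared by the cytokines IL12 and IL23, and Il23a encodes the subunit that is particular to IL23. TNF and microbial products free NF-κB from its cytoplasmic inhibitor IκBα, the product of Nfkbia, and NF-κB then induces both cytokine genes and its own regulators. Nfkbia refills the inhibitor pool, and Tnfaip3 encodes the ubiquitin-editing enzyme A20 that stops signalling upstream. Nfkbiz encodes the nuclear protein IκBζ, which helps NF-κB to induce a secondary set of genes including Il6. Where Nfkbiz is counted among the inhibitors below, the word is a group name and does not describe this action.

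RefSeq promoter windows (GRCm38.p6) were matched for 5 of the 9 members (Tnf, Il6, Il12b, Tnfaip3 and Nfkbia). The 4 below, each 250 bases running 5′ to 3′ up to the base before the transcription start, are shown because they belong to the pair of inhibitors that differed past 2-fold between genotypes in Mφ-like cells at 72 h, and to cytokines found mostly in different cell classes. Capitals mark matches to the NF-κB consensus on either strand.
Nfkbia (chr12:55492648-55492897, minus strand): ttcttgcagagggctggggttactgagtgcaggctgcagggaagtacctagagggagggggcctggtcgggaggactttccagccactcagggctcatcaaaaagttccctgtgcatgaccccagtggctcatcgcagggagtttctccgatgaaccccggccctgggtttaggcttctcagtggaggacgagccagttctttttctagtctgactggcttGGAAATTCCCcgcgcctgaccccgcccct
Tnfaip3 (chr10:19015411-19015660, minus strand): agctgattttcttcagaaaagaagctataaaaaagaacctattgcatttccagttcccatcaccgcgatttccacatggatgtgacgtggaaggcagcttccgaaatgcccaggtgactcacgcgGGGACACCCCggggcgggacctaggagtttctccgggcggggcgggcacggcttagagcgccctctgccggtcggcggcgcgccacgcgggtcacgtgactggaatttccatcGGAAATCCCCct
Il6 (chr5:30012864-30013113, plus strand): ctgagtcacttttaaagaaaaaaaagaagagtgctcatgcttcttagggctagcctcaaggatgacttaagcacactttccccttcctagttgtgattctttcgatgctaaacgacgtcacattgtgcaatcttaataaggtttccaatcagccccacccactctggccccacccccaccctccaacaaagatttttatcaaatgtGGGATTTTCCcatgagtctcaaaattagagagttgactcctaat
Tnf (chr17:35202008-35202257, minus strand): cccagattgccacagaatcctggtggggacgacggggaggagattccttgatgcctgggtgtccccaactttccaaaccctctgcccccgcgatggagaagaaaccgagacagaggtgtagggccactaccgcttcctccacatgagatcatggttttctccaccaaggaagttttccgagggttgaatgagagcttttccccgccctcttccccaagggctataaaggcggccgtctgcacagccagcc
Nfkbia held 1 match, whose last base lay 20 bases before the start. Tnfaip3 held 2 matches, ending 3 and 116 bases before the start, while a second Tnfaip3 window in the table, before a start further into the gene (chr10:19011964-19012213), held none. Il6 held 1 match, ending 35 bases before it. No match lay in the windows of Tnf or Il12b, which says only that these letters are not in those 250 bases. Of 32841 promoter windows of this length, 3.90% held an NF-κB match. The AP-1 motif TGANTCA, searched on both strands and overlapping none of these NF-κB matches, was in the windows of Il6 and Tnfaip3 and in 6.75% of all windows.

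All 9 genes are protein coding, and none overlaps another annotated gene on GRCm38 (GENCODE vM21). Nfkbia lies on the minus strand of chr12:55489410-55492647, Tnfaip3 on the minus strand of chr10:19000910-19015657 and Nfkbiz on the minus strand of chr16:55811375-55838899. Tnf lies on the minus strand of chr17:35199381-35202007, Il23a on the minus strand of chr10:128296139-128298752, Il6 on the plus strand of chr5:30013114-30019981, Il10 on the plus strand of chr1:131019845-131024974, Il12b on the plus strand of chr11:44400063-44414033 and Osm on the plus strand of chr11:4236420-4241026.

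In all, 5811 cells were deposited. The 24 h libraries held 1674 WT and 1774 KO cells, and the 72 h libraries 1315 and 1048. Median depth differed between libraries, from 3282 to 12859 unique molecular identifiers (UMIs, each 1 captured transcript) per cell, and the libraries also differed in class. Mφ-like cells, which include monocytes, made up 76.3% of WT cells but 12.46% of KO cells at 24 h, and 64.0% and 14.5% at 72 h. Neutrophil-like cells made up 17.8% and 72.7% at 24 h, and 6.54% and 20.6% at 72 h. Dendritic cell (DC)-like cells numbered 62, 62, 178 and 134 in WT and KO at 24 h and WT and KO at 72 h. A further class of 9, 51, 106 and 375 cells was led by Siglecf. It carried neutrophil genes (Csf3r 978 to 1648 and Mmp9 1677 to 3611 counts per 1000000 UMIs, CPM) and had Ly6g at 0 in all libraries but the 72 h KO one (1.70 CPM). Of the eosinophil markers, which include Siglecf itself (146 to 688 CPM), Il5ra, Prg2 and Ear1 were at 0 in all 4 and Ccr3 gave 1 and 4 UMIs at 72 h (4.33 and 3.39 CPM). The marker list on which the class scored highest was that of mast cells or basophils. Only 1 marker of that list reached 20 CPM, under the minimum of 3, so the class was given no cell type name. All 10 Mφ, 8 neutrophil and 9 DC markers reached 20 CPM in their class. Ccr2 itself stood at 754 and 1083 CPM in WT Mφ-like cells at 24 h and 72 h and at 94.8 and 79.4 CPM in KO ones, a check that reads only the 3′ end of the transcript and need not report the disrupted part. The libraries shared 4 cell barcodes.

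A level is given as CPM, the UMIs of the gene per 1000000 UMIs of all genes, summed over the cells of a class in 1 library. Intervals are exact 95% counting intervals. They cover counting error only, and since UMIs of 1 cell are not independent they are too narrow. A difference was counted as past 2-fold only if its interval lay wholly above or below 0 on the log2 scale and the mean of both levels was at least 10 CPM.

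The cytokines divided between the classes. Il6 and Il10 transcripts were mostly in Mφ-like cells by share of UMIs: 93.4% of 918 Il6 UMIs and 90.9% of 143 Il10 UMIs over all libraries. Il23a was in neutrophil-like and Siglecf-led cells, which held 77.8% and 19.3% of its 450 UMIs, against 2.89% in Mφ-like and none in DC-like cells. Tnf leaned to the same cells, with 58.6% of 9841 UMIs in neutrophil-like, 21.6% in Mφ-like and 13.9% in Siglecf-led cells. Osm was shared, with 51.1% of 12989 UMIs in Mφ-like and 42.8% in neutrophil-like cells. Il12b gave 3 UMIs in the whole series, all in DC-like cells, 1 in the 24 h KO library and 2 in 1 cell of the 72 h WT library, so it was not measurable at this depth and is not compared. The inhibitors were spread more evenly: of 44301 Nfkbia UMIs, 37.8% were in Mφ-like and 44.1% in neutrophil-like cells, and of 11889 Nfkbiz UMIs, 51.9% and 30.6%. The shares follow the number of cells and their RNA content as well as the level in each cell.

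**Figure D1:**
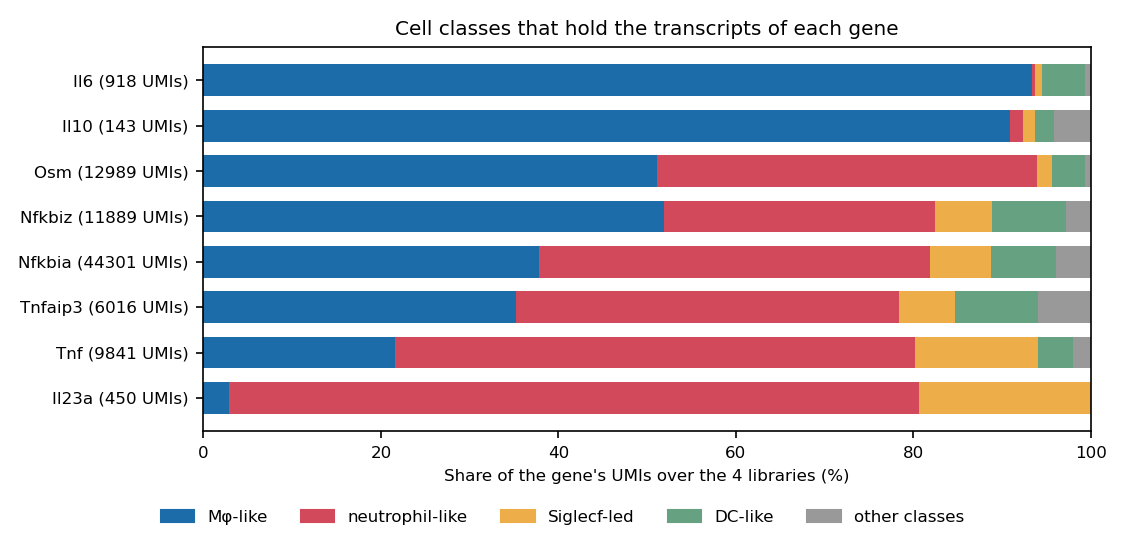
Share of each gene's UMIs (percent, horizontal axis) found in each leukocyte class, summed over the 4 libraries, with 1 stacked bar per gene. Il6 and Il10 are almost all Mφ-like, Il23a is neutrophil-like and Siglecf-led, and Tnf, Osm and the inhibitors are spread over several classes.

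Tnf was highest in neutrophil-like and Siglecf-led cells. In neutrophil-like cells it stood at 708 and 1075 CPM in WT and KO at 24 h and at 375 and 689 CPM at 72 h. In Mφ-like cells it stood at 60.4, 132.9, 37.3 and 18.8 CPM in the same order, and in DC-like cells at 39.9, 14.8, 58.3 and 29.9 CPM. Neutrophil-like cells were above Mφ-like cells in all 4 libraries, and their intervals did not overlap. Siglecf-led cells, at 702, 1056 and 872 CPM in KO at 24 h, WT at 72 h and KO at 72 h, were below neutrophil-like cells in the first and above them in the other 2. Neutrophils carry little RNA, and per cell the gap was smaller: 1.74, 3.42, 1.08 and 3.48 Tnf UMIs per neutrophil-like cell against 0.909, 2.19, 0.517 and 0.263 per Mφ-like cell. With every cell thinned to 1000 UMIs, Tnf was detected in 29.7%, 40.7%, 18.8% and 26.7% of neutrophil-like cells and in 4.97%, 10.2%, 3.37% and 3.03% of Mφ-like cells (unthinned, 41.9%, 58.0%, 29.1% and 50.9%, and 35.9%, 55.2%, 21.3% and 18.4%). Thinning left out 19, 12, 1 and 6 neutrophil-like and 10, 5, 11 and 20 Mφ-like cells.

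Osm was also highest in neutrophil-like cells in all 4 libraries, at 468, 1068, 811 and 587 CPM. Mφ-like cells came next, at 192, 296, 142 and 97.2 CPM, except that Siglecf-led cells, at 113 CPM in WT and 146 CPM in KO at 72 h, overlapped them in the first and lay above them in the second. DC-like cells were lower, at 49.4, 22.1, 89.4 and 21.4 CPM. T cell-like cells stood at 38.1 CPM in KO at 24 h and 28.6 CPM in KO at 72 h, so the KO DC-like levels were no higher than those of a lymphocyte class. After thinning to 1000 UMIs, Osm was detected in 21.5%, 35.2%, 37.6% and 27.1% of neutrophil-like cells (28.9%, 46.8%, 52.3% and 48.1% before). B cell-like cells, which should lack it, gave the background: at 1000 UMIs none of 36 in KO at 24 h and none of 20 in WT at 72 h had an Osm UMI (exact upper bounds 9.74% and 16.8%), against 5.56% and 25% before thinning at median depths of 5329 and 9072 UMIs.

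Il6 came from few cells. Whole libraries held 621 Il6 UMIs in 165 cells of WT and 122 in 28 cells of KO at 24 h, then 161 in 54 and 14 in 8 cells at 72 h. The 27 richest cells of the 24 h WT library and the 5 richest of the 24 h KO library held 50% of these UMIs, and 1 KO cell alone held 27.0%. In Mφ-like cells the level was 32.2, 29.9, 10.6 and 2.82 CPM, and in neutrophil-like cells 1, 2, 0 and 0 UMIs were found. Siglecf-led cells of KO at 72 h stood at 5.94 CPM, above Mφ-like cells but with overlapping intervals. At 1000 UMIs per cell Il6 was detected in 2.84%, 2.78%, 1.32% and 1.52% of Mφ-like cells. As background, the T, NK and innate lymphoid classes had no Il6, Il12b or Il23a UMI at that depth. B cell-like and Trdc-led cells had no Il6 UMI at that depth either, but unthinned they held 1 and 5 Il6 UMIs over all libraries, with a level of 18.1 CPM in the Trdc-led cells of KO at 24 h.

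Il10 was low throughout, at 50, 5, 66 and 9 UMIs or 2.60, 1.37, 5.66 and 4.23 CPM in Mφ-like cells, below the 10 CPM needed for a comparison. By level Mφ-like cells were not always first. T cell-like cells of KO at 24 h stood at 5.44 CPM and B cell-like cells of WT at 72 h at 9.50 CPM, from few UMIs and with intervals that overlapped the Mφ-like ones. Il23a stood at 40.8, 74.0, 36.3 and 7.34 CPM in neutrophil-like cells, from 30, 303, 9 and 8 UMIs. Siglecf-led cells held 108, 117 and 40.7 CPM in KO at 24 h, WT at 72 h and KO at 72 h, which overlapped the neutrophil-like level in the first and lay above it in the other 2. DC-like cells had no Il23a UMI in any library, where the counting intervals allow up to 3.50, 2.72, 1.02 and 0.961 CPM.

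The inhibitors followed the order of Tnf more than that of Il6. Nfkbia stood at 3007, 3386, 3093 and 2450 CPM in neutrophil-like cells, at 511, 447, 421 and 179 CPM in Mφ-like cells and at 302, 485, 421 and 191 CPM in DC-like cells. Per cell this was 7.42, 10.8, 8.92 and 12.4 UMIs in neutrophil-like and 7.69, 7.38, 5.83 and 2.51 UMIs in Mφ-like cells, so the excess in neutrophils at 24 h in WT was one of share and not of number. Tnfaip3 stood at 453, 441, 480 and 310 CPM in neutrophil-like cells and at 60.4, 68.3, 58.2 and 15.0 CPM in Mφ-like cells. Nfkbiz stood at 606, 632, 427 and 454 CPM in neutrophil-like cells and at 109, 109, 289 and 147 CPM in Mφ-like cells, and at 52.2, 56.8, 187 and 47.9 CPM in DC-like cells. T cell-like cells, with at least 31 cells in 3 libraries, held Tnfaip3 at 122, 178 and 139 CPM in KO at 24 h, WT at 72 h and KO at 72 h, above the Mφ-like level of the same library each time, while their Tnf was 84.4, 29.7 and 43.6 CPM.

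**Figure D2:**
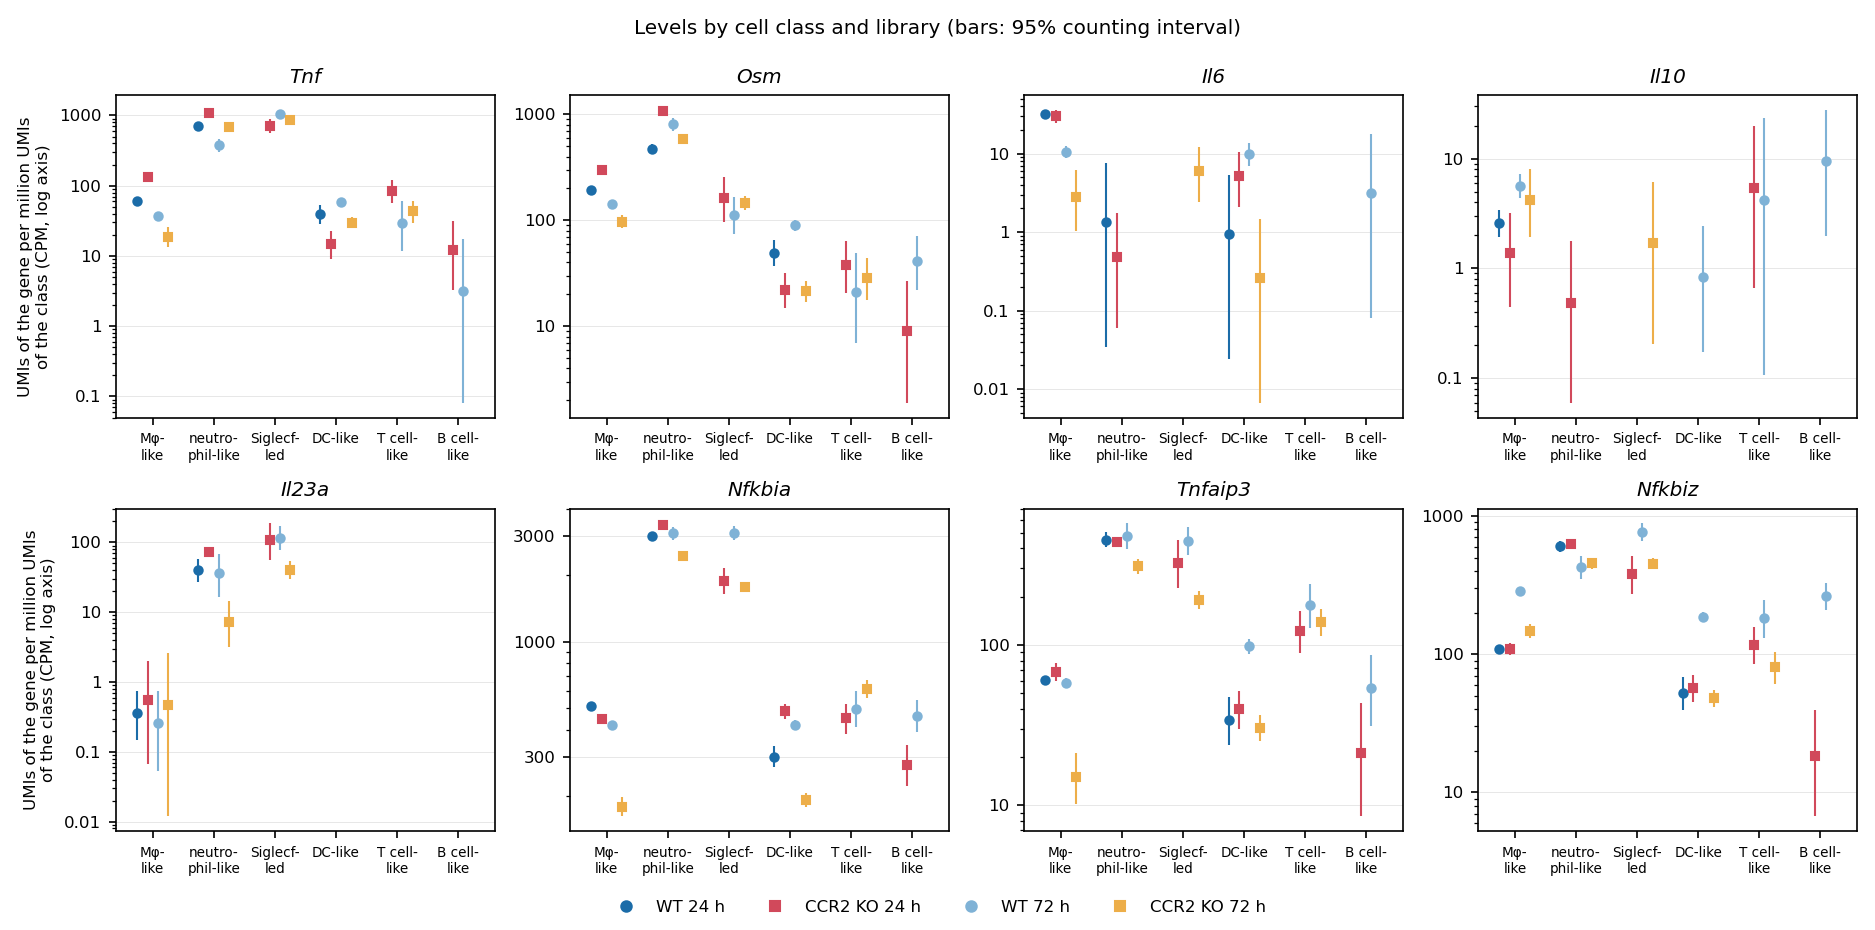
Level of 8 members (CPM, log axis) by leukocyte class and library, for classes with at least 20 cells in that library, without Il12b (3 UMIs) and levels of 0. Neutrophil-like and Siglecf-led points lie above the other classes for Tnf and Il23a, and Il6 in both 24 h libraries is highest in Mφ-like cells, at 32.2 and 29.9 CPM.

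The first comparison asked how Mφ-like cells of CCR2 KO mice differed from WT ones at 24 h. Tnf was the member past 2-fold: 485 UMIs in 221 KO cells and 1161 UMIs in 1277 WT cells gave 132.9 against 60.4 CPM, a log2 ratio of 1.14 (0.98 to 1.29), or 2.20-fold higher in KO. That is 1 of 6 members compared, beside 2.46% of all genes higher and 1.31% lower by the same rule. Osm was 0.62 (0.52 to 0.72) higher on the log2 scale, short of 2-fold. Il6 at -0.11 (-0.42 to 0.19), Tnfaip3 at 0.18 (-0.03 to 0.37), Nfkbia at -0.19 (-0.27 to -0.12) and Nfkbiz at -0.0046 (-0.16 to 0.15) were close to the WT level. The median log2 ratio was 0.09 over the members and -0.06 over the 7356 genes compared.

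The clusters that made up the class differed between these libraries. A cluster led by Fabp4, Spp1 and Inhba held 38 of 1277 WT cells (2.98%) and 79 of 221 KO cells (35.7%). Its Tnf was high in both, at 230 CPM in WT and 208 CPM in KO, a log2 ratio of -0.14 (-0.46 to 0.19), and it held 9.39% of the Tnf UMIs of WT Mφ-like cells and 62.5% of those of KO. For Osm its level was 331 CPM in WT and 472 CPM in KO, a log2 ratio of 0.51 (0.26 to 0.77), with 4.25% and 63.5% of the Osm UMIs. Within other clusters the Tnf log2 ratio was 1.01 (0.46 to 1.53) among cells led by Pf4, Ppbp and Fabp5, 0.91 (0.26 to 1.51) among cells led by Isg15, Ms4a4c and Ifit3, and -0.71 (-1.26 to -0.16) among cells led by Pmepa1, Cd72 and Cd81. With equal weight for the clusters that held at least 20 cells in both libraries, the Tnf log2 ratio was -0.05, of the opposite sign. That weighting leaves out other clusters, among them the cells led by Cxcl3, Sod2 and Il1a. With cells gated one by one the Tnf log2 ratio of the class was 0.93 while Il6 was -1.20.

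WT Il6 at 24 h also sat in 1 cluster. Cells led by Cxcl3, Sod2 and Il1a, 335 cells or 26.2% of WT Mφ-like cells, held 65.6% of the Il6 UMIs of the class at 76.2 CPM and 45.0% of its Tnf at 98.0 CPM. The neighbouring cluster led by Isg15 held Il6 at 2.97 CPM. Osm (265 CPM) and Nfkbia (734 CPM) were likewise above the class level in the Cxcl3-led cells.

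**Figure D3:**
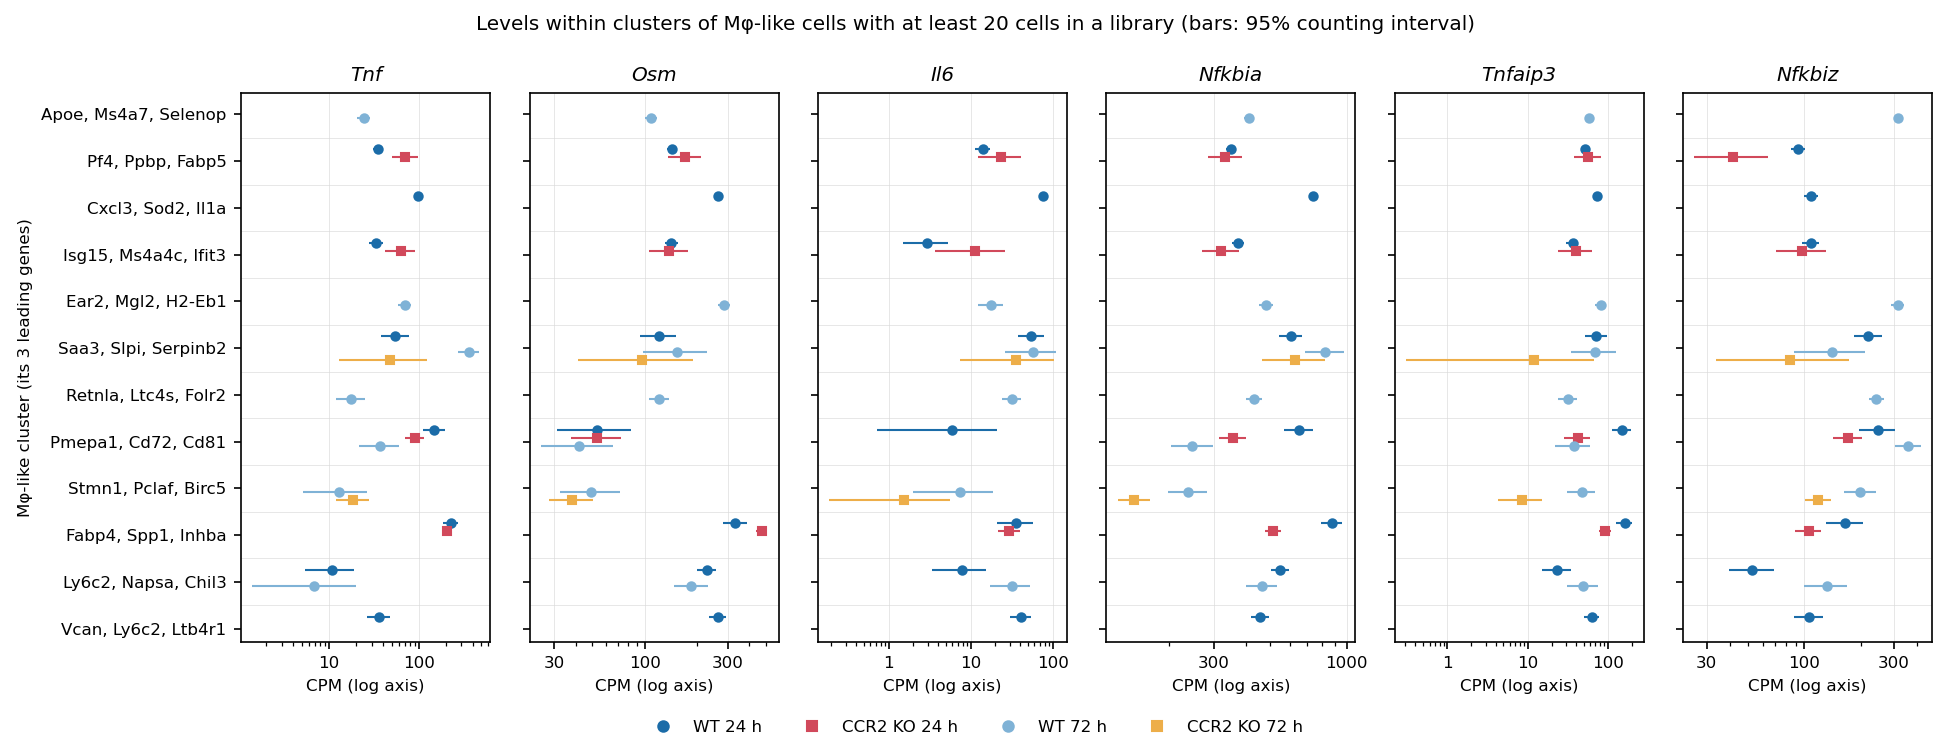
Level of 6 members (CPM, log axis) in each Mφ-like cluster with at least 20 cells in a library, coloured by library and named by leading genes. Il6 in the 24 h WT library peaks in the Cxcl3-led cluster at 76.2 CPM, while Tnf in the 24 h KO library is carried by the Fabp4-led cluster at 208 CPM.

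At 72 h the Mφ-like cells of KO mice were below WT in the inhibitors. Tnfaip3 gave 32 UMIs in 152 KO cells and 678 UMIs in 842 WT cells, 15.0 against 58.2 CPM, a log2 ratio of -1.95 (-2.51 to -1.44) or 3.87-fold lower. Nfkbia gave 381 and 4907 UMIs, 179 against 421 CPM, a log2 ratio of -1.23 (-1.39 to -1.08) or 2.35-fold lower. These were 2 of 5 members compared, beside 2.54% of genes lower and 7.20% higher. Tnf at -0.99 (-1.50 to -0.52) and Nfkbiz at -0.98 (-1.15 to -0.81) lay just short of 2-fold and passed it when libraries were scaled by TMM or by the median ratio, where Tnf was -1.23 and -1.13 and Nfkbiz -1.21 and -1.11. Osm was -0.55 (-0.76 to -0.34), but 0.36 without the cluster of dividing cells and 0.05 in cells with at most 5% mitochondrial UMIs. The median was -0.99 over the members and 0.14 over the 8024 genes compared. Il6, with 6 KO and 123 WT UMIs, was below the minimum level for a call.

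The KO class at 72 h was again built of other clusters. Dividing cells led by Stmn1, Pclaf and Birc5 were 74 of 152 KO cells (48.7%) and 41 of 842 WT cells, while cells led by Apoe, Ms4a7 and Selenop made up 51.0% of WT. Within the dividing cells Tnfaip3 was still lower in KO, at -2.48 (-3.64 to -1.41), as were Nfkbia at -0.71 (-1.04 to -0.38) and Nfkbiz at -0.75 (-1.11 to -0.38). Without the dividing cells Tnfaip3 was -1.23 and Nfkbia -0.90, and Nfkbia was also short of 2-fold as a mean of single-cell CPM (-0.73) and with clusters weighted equally (-0.46). The last value covers only the dividing and the Saa3-led cells, the clusters with at least 20 cells in both libraries. Cells led by Saa3, Slpi and Serpinb2 gave 4 Tnf UMIs in KO and 57 in WT, a log2 ratio of -2.92 (-4.84 to -1.48). Other signals moved with these values. The 12 genes that tissue dissociation induces, such as Fos and Hspa1a, summed to 4288 CPM in KO Mφ-like cells and to 7669 CPM in WT ones at 72 h, against 8423 and 7895 CPM at 24 h. At 72 h, non-immune markers, of which 8 of 10 were detected in KO (Sox10 and Upk3b at 0) and 8 of 10 in WT (Epcam and Upk3b at 0), summed to 1202 CPM in KO and 47.4 CPM in WT, and 3 of 4 plasma cell markers were detected in each and summed to 239 and 6.86 CPM. Leaving out the 6 KO cells in which these lists took at least 0.5% of UMIs left Tnfaip3 at -1.86 and Nfkbia at -1.20. The part of the dissociation genes in the result was not tested.

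**Figure D4:**
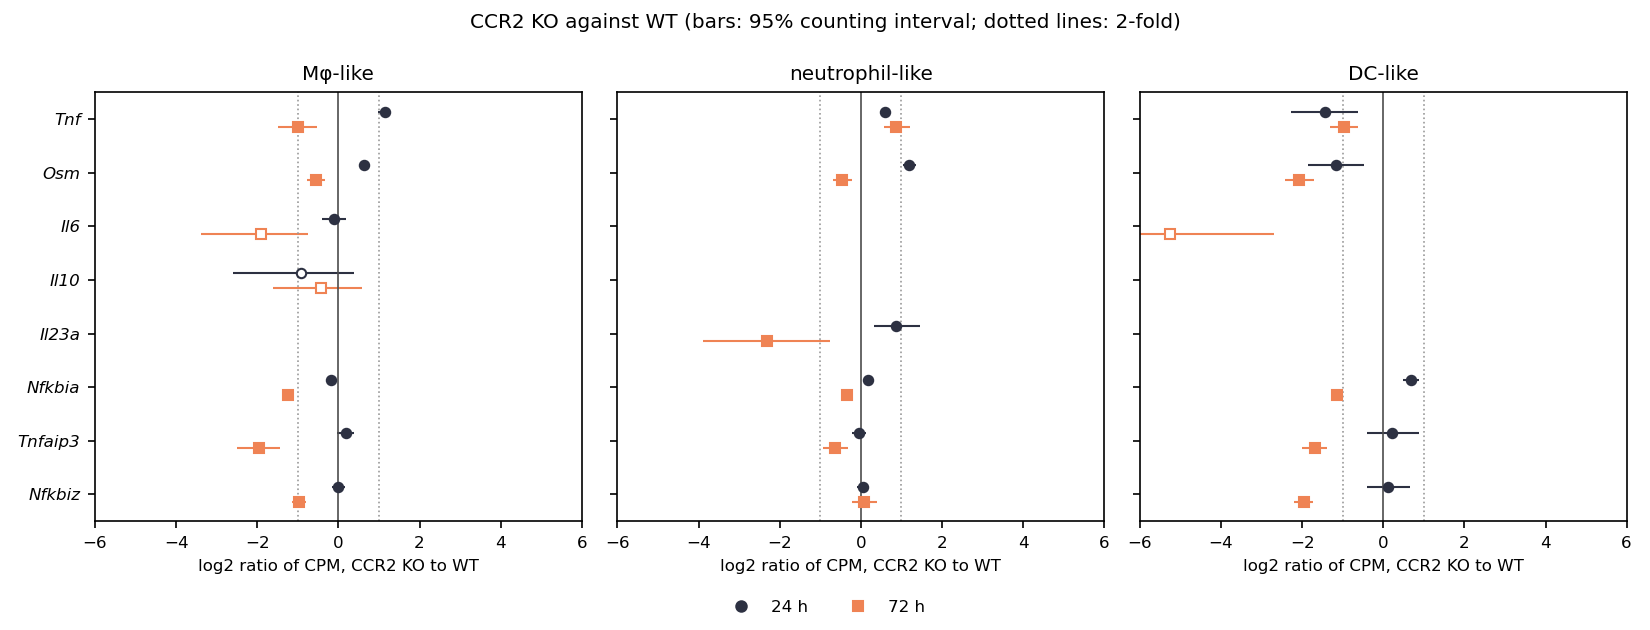
CCR2 KO against WT as log2 ratio of CPM at 24 h and 72 h in Mφ-like, neutrophil-like and DC-like cells; bars are 95% counting intervals, dotted lines mark 2-fold, and open symbols have a mean level under 10 CPM. The interval of Il6 in DC-like cells at 72 h runs past the axis, and in Mφ-like cells Tnf lies above 0 at 24 h (1.14) and below it at 72 h (-0.99).

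The other genes of the pathway gave the setting of these values in Mφ-like cells. At 24 h none of 9 receptors and partner subunits, none of 8 NF-κB subunits and kinases and none of 15 further inhibitors was past 2-fold between KO and WT. Of 12 further response genes, 3 were higher in KO (Ccl4 at 1.52, Cd83 at 1.33 and Ccl3 at 1.10 on the log2 scale, the first and last being chemokines) and 1 was lower (Sod2, a mitochondrial antioxidant enzyme, at -1.17). At 72 h, 5 of 15 further inhibitors were lower in KO and 1 was higher. The lower ones were the phosphatases Dusp2 (-2.44) and Dusp1 (-1.12), the A20-binding protein Tnip3 (-1.40), the mRNA-decay factor Zfp36 (-1.21) and the cytokine-signalling inhibitor Socs3 (-1.13), and Socs1 was higher (1.01). Of 10 response genes compared, 3 were lower (the prostaglandin synthase Ptgs2 at -1.97, Cd83 at -1.60 and Ccl3 at -1.24), and of 8 subunits and kinases Relb was lower (-1.13). None of the 9 receptors was past 2-fold at 72 h. The list medians at 72 h were -0.33 for receptors, -0.41 for subunits and kinases, -0.51 for further inhibitors and -0.84 for response genes, beside 0.14 over all genes, and the dissociation list had a median of -1.39 with 7 of 12 lower.

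Neutrophil-like cells differed between genotypes at 24 h in Osm. KO cells held 4377 Osm UMIs in 1289 cells and WT cells 344 UMIs in 298 cells, 1068 against 468 CPM, a log2 ratio of 1.19 (1.03 to 1.35) or 2.28-fold higher in KO. That is 1 of 6 members compared, beside 5.91% of genes higher and 2.34% lower. Tnf at 0.60 (0.47 to 0.74) and Il23a at 0.86 (0.31 to 1.45) were also higher in KO but within 2-fold, while Nfkbia at 0.17 (0.11 to 0.24), Nfkbiz at 0.06 (-0.08 to 0.21) and Tnfaip3 at -0.04 (-0.21 to 0.13) stayed near WT. The median of the 5351 genes compared was 0.12.

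The most populous cluster of neutrophil-like cells at 24 h differed between the libraries. Cells led by Rsad2, Ifit1 and Ifit3, interferon-induced genes, made up 46.7% of KO and 18.1% of WT, and cells led by Cxcr2, Lrg1 and Gcnt2 made up 25.2% of KO and 49.0% of WT. The difference in Osm appeared within clusters too. It was 200 CPM in WT and 1142 CPM in KO in the Rsad2-led cells, a log2 ratio of 2.52 (1.91 to 3.19). In the Cxcr2-led cells it was 381 and 621 CPM (0.70, 0.40 to 1.02), in the Retnlg-led cells 934 and 1834 CPM (0.97, 0.73 to 1.23) and in the Asprv1-led cells 277 and 514 CPM (0.89, 0.36 to 1.45). The Retnlg-led cluster was the highest in Osm in both 24 h libraries and in KO at 72 h, where it held 78.1% of neutrophil Osm, while in WT at 72 h the Cxcr2-led cells were above it, at 1018 against 847 CPM. The Asprv1-led cluster was the highest in Tnf, with 1344 CPM in WT and 2528 CPM in KO at 24 h and 1889 CPM in KO at 72 h, where it held 61.4% of neutrophil Tnf. Markers of Mφs were detected in this class, 9, 10, 9 and 8 of 10 in the 4 libraries, and summed to 1485, 1269, 2182 and 2488 CPM. Their part in the result was not tested.

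At 72 h Il23a was the member past 2-fold in neutrophil-like cells, from 9 WT and 8 KO UMIs in 86 and 216 cells, at 36.3 and 7.34 CPM, a log2 ratio of -2.31 (-3.88 to -0.76). It was -1.10 at a Leiden resolution of 2, where its interval included 0. This was 1 of 6 members, beside 3.32% of genes lower and 1.83% higher. Tnf was 0.88 (0.56 to 1.20) higher in KO, and Tnfaip3 at -0.63 (-0.94 to -0.32) and Osm at -0.47 (-0.70 to -0.23) were lower within 2-fold. The sign of Osm, Tnfaip3 and Nfkbia at 72 h depended on the scale: as mean UMIs per cell they were 0.34, 0.18 and 0.47. The most populous clusters differed here as well, the Cxcr2-led one in WT (39.5%) and the Retnlg-led one in KO (40.3%), and in the Retnlg-led cells Osm was 0.04 (-0.32 to 0.42).

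In Siglecf-led cells Il23a was lower in KO at 72 h as well, with 117 CPM in 106 WT cells and 40.7 CPM in 375 KO cells, a log2 ratio of -1.52 (-2.23 to -0.78). Tnfaip3 was lower too, at 446 and 191 CPM (-1.22, -1.57 to -0.87). These were 2 of the members past 2-fold, beside 1.71% of genes lower and 2.62% higher. Tnf, at 1056 and 872 CPM, differed by -0.28 (-0.48 to -0.07), and Nfkbia at -0.82 (-0.94 to -0.69) and Nfkbiz at -0.76 (-1.01 to -0.50) stayed within 2-fold.

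In DC-like cells 4 members were lower in KO at 72 h. Osm gave 322 UMIs in 178 WT cells and 82 UMIs in 134 KO cells, 89.4 against 21.4 CPM, a log2 ratio of -2.07 (-2.43 to -1.71). Nfkbiz gave 187 against 47.9 CPM, -1.97 (-2.21 to -1.73), and Tnfaip3 98.0 against 30.5 CPM, -1.69 (-2.0 to -1.38). Nfkbia was at 421 and 191 CPM, -1.14 (-1.27 to -1.01). These were 4 of 5 members compared, beside 4.22% of genes lower and 1.93% higher. The 12 dissociation genes moved with them: 7 were past 2-fold lower, with a median of -1.07 beside -0.01 over all genes, and their summed level was 7013 CPM in WT and 4879 CPM in KO. Their part in the result was not tested. As mean UMIs per cell Nfkbia was -0.63, no longer past 2-fold. Tnf was -0.96 (-1.30 to -0.63). Il6 gave 36 UMIs in WT and 1 in KO, a log2 ratio of -5.26 (-10.61 to -2.69), at a mean below 10 CPM.

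Markers of other classes were also detected in DC-like cells, and their source was not tested. All 10 Mφ markers were detected in all 4 libraries, and summed to 2811 and 791 CPM in WT and KO at 24 h and to 11712 and 1026 CPM at 72 h. Clusters within the class led by Timp1 and Ms4a4c, by Apoe and C1qa, and by Retnla and Fn1 together held 30, 12, 78 and 16 cells. Of these leading genes only Apoe and C1qa are among the 10 Mφ markers. Each of these clusters scored highest for type 2 DCs, but under the 0.75 needed for a subset name. Without these clusters the log2 ratios at 72 h were -3.70 for Osm, -1.47 for Nfkbiz, -1.78 for Tnfaip3 and -1.34 for Nfkbia. Among dividing DC-like cells, 27 in WT and 21 in KO, they were -2.92 (-3.72 to -2.21), -1.14 (-1.65 to -0.64), -1.62 (-2.36 to -0.92) and -1.44 (-1.74 to -1.13).

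At 24 h Tnf was lower in KO DC-like cells, with 42 and 20 UMIs or 39.9 against 14.8 CPM (-1.43, -2.28 to -0.63), and so was Osm, with 52 and 30 UMIs (-1.16, -1.86 to -0.48). These were 2 of 5 members, beside 3.19% of genes lower and 3.68% higher. In the same KO library Tnf stood at 12.7 CPM in NK cell-like and 12.1 CPM in B cell-like cells, close to the DC-like level. A cluster of 28 WT cells led by Timp1 and Ms4a4c held 50 of the 52 Osm UMIs (96.2%) of WT DC-like cells and 59.5% of their Tnf UMIs. Without the Timp1-, Apoe- and Retnla-led clusters the Osm log2 ratio was 1.93, of the opposite sign, but its interval included 0 (-0.14 to 5.09). With cells gated one by one Tnf was -0.76 and Osm -0.60. Nfkbia was higher in KO at 24 h, at 0.68 (0.49 to 0.88), short of 2-fold. Mature DC-like cells led by Ccl5, Ccr7 and Fscn1, 28 cells or 45.2% of the KO class, held 73.4% of its Nfkbia at 821 CPM.

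The second question was how the members moved from 24 h to 72 h within each genotype. The time comparisons use the same 4 libraries as those between genotypes, so the values are set side by side and not combined. In WT Mφ-like cells Il6 was lower at 72 h, from 32.2 to 10.6 CPM, a log2 ratio of -1.61 (-1.90 to -1.33), and Nfkbiz was higher, from 109 to 289 CPM, 1.41 (1.33 to 1.49) or 2.65-fold. These were 2 of 6 members, beside 6.75% of genes higher and 6.14% lower. Of the 12 dissociation genes 2 were higher and 1 lower, with a median of 0.44 beside -0.02 over all genes. Their summed level was 7895 CPM at 24 h and 7669 CPM at 72 h, and their part in the result was not tested. Tnf at -0.70 (-0.86 to -0.53), Osm at -0.44 (-0.52 to -0.35), Nfkbia at -0.28 (-0.33 to -0.23) and Tnfaip3 at -0.05 (-0.19 to 0.08) were within 2-fold. Il10, with 50 and 66 UMIs, was 1.12 (0.57 to 1.68), below the minimum level. With clusters weighted equally, Il6 was 0.37 and Tnf 0.92, both of the opposite sign, and Nfkbiz 0.28. These values cover only clusters with at least 20 cells in both libraries (Saa3-, Pmepa1- and Ly6c2-led) and leave out the most populous clusters of each. As a mean of single-cell CPM Il6 was -0.60.

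The WT libraries shared few Mφ-like clusters. At 24 h the most populous were the Pf4-led (376 cells), Cxcl3-led (335) and Isg15-led (273) ones, and at 72 h the Apoe-led (429), Ear2-led (127) and Retnla-led (122) ones. The Apoe-led cells held Il6 at 0, Tnf at 24.4 CPM and Nfkbiz at 318 CPM. The Retnla-led cells held 47.2% of the Il6 of the class at 72 h, at 32.0 CPM, and the Ear2-led cells held Osm at 287 CPM. Within clusters present at both times Nfkbiz was 0.54 (0.15 to 0.94) in the Pmepa1-led and 1.32 (0.76 to 1.88) in the Ly6c2-, Napsa- and Chil3-led cells. Tnf differed in opposite directions, -2.0 (-2.89 to -1.18) in the Pmepa1-led and 2.72 (2.08 to 3.38) in the Saa3-led cells.

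In KO Mφ-like cells 5 of 6 members were lower at 72 h, beside 4.28% of genes lower and 11.7% higher. Il6 was -3.41 (-4.88 to -2.24), from 109 and 6 UMIs, and Tnf was -2.82 (-3.33 to -2.36), from 132.9 to 18.8 CPM or 7.07-fold lower. Tnfaip3 was -2.18 (-2.76 to -1.65), Osm -1.61 (-1.83 to -1.39) and Nfkbia -1.32 (-1.48 to -1.16). Nfkbiz did not share this, at 0.44 (0.22 to 0.66). The members' median was -1.90, beside 0.16 over the 7881 genes compared. Of 12 further response genes, 10 were lower, with Il1a at -5.12, Ccl3 at -3.21, Cxcl1 at -3.18 and Ptgs2 at -3.09, while in WT 4 were lower (Il1a at -3.86, Sod2 at -2.90, Cxcl2 and Cxcl1 both at -1.71) and Cd83, a surface molecule of activated antigen-presenting cells, was higher at 3.23. Among receptors Lifr, a receptor chain for LIF that also binds oncostatin M, was higher at 72 h in WT (2.34) and KO (1.78), and Il10ra, the IL10 receptor chain, was higher in WT (1.37). The dissociation list was lower in KO in 7 of 12 genes. Without the dividing cells 3 members were past 2-fold in place of 5, since Osm was then -0.67 and Nfkbia -0.96.

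**Figure D5:**
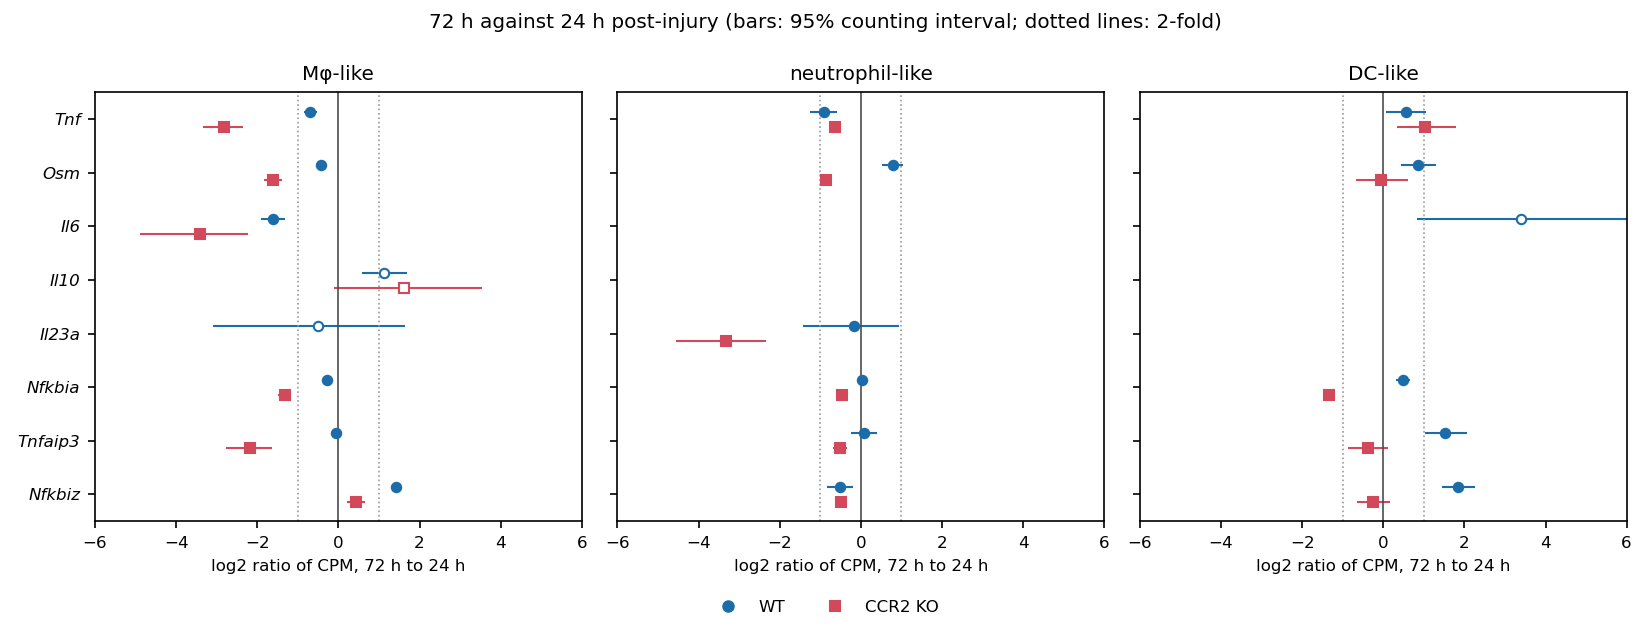
72 h against 24 h as log2 ratio of CPM in WT and CCR2 KO, for Mφ-like, neutrophil-like and DC-like cells, with 95% counting intervals and 2-fold lines, where open symbols have a mean level under 10 CPM. In Mφ-like cells the KO points for Tnf (-2.82) and Osm (-1.61) lie below the WT points (-0.70 and -0.44).

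In neutrophil-like cells no member was past 2-fold between times in WT, beside 6.00% of genes higher and 3.59% lower. Osm was 0.79 (0.53 to 1.05), Tnf -0.92 (-1.25 to -0.60) and Nfkbiz -0.50 (-0.82 to -0.19). In KO, Il23a was lower at 72 h, from 74.0 to 7.34 CPM (-3.33, -4.56 to -2.34), beside 7.38% of genes lower and 4.03% higher. Osm was -0.86 (-0.99 to -0.74) and Tnf -0.64 (-0.76 to -0.53). As mean UMIs per cell the KO value for Tnf was 0.03, of the opposite sign, in cells whose median depth was 2983 UMIs at 24 h and 4787 at 72 h. Siglecf-led cells of KO mice also had less Il23a at 72 h, -1.41 (-2.34 to -0.36), beside 2.26% of genes lower and 4.34% higher.

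In DC-like cells of WT mice Nfkbiz was 1.84 (1.44 to 2.27) and Tnfaip3 1.52 (1.02 to 2.06) higher at 72 h, 2 of the 5 members compared, beside 6.13% of genes higher and 2.17% lower. Of the 12 dissociation genes 4 were higher and 1 lower, with a median of 0.61 beside 0.02 over all genes, and their part in the result was not tested. In KO mice Nfkbia was lower, -1.34 (-1.50 to -1.19), and Tnf higher, 1.02 (0.33 to 1.78), from 20 and 115 UMIs, though Tnf was 0.15 with cells gated one by one, beside 2.95% of genes lower and 4.48% higher. Cells led by Xcr1, 39 in the KO library at 72 h, held little of these, with Nfkbia at 76.3 CPM, Nfkbiz at 4.81 CPM and Osm at 0.69 CPM.

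Within single cells the inhibitors were detected more often with Tnf than without it, while for Osm only Tnfaip3 is given here. Among 1277 neutrophil-like cells of the 24 h KO library thinned to 1000 UMIs, Tnfaip3 was detected in 43.3% of the 520 cells with Tnf and in 21.8% of those without, Nfkbia in 91.7% and 71.7%, and Nfkbiz in 52.3% and 32.4%. Of the 449 cells with Osm, 24.5% had Tnfaip3, against 33.8% of those without. Osm was found in 35.8% of cells with Tnf and 34.7% of those without. In WT Mφ-like cells at 24 h, where 63 thinned cells had Tnf, Nfkbia was detected in 55.6% of them and in 33.3% of the others. The cells of a class share their library and belong to several clusters, so these are descriptions of the 2 libraries.

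Across 25 combinations of class and library Tnf went with the inhibitors and Il6 did not. These correlations of log2 levels are descriptions only, computed for 8229 genes over points that share libraries and depth. Tnfaip3 and Nfkbia had Pearson's r of 0.918, Tnf and Nfkbia 0.899, Tnf and Il23a 0.868 and Tnf and Osm 0.716, whereas Tnf and Il6 had -0.12. The genes most like Tnf were Plk3 (0.946), 2810474O19Rik (0.933) and Sertad1 (0.927), and those most like Osm were Clec4d (0.938) and Prdx5 (0.935). Those most like Nfkbiz were Dusp1 (0.926), Tnfrsf1b (0.903) and Fos (0.901), the last a gene of the dissociation list. Nfkbia was most like Gadd45b (0.942) and Il23a most like Entpd3 (0.968). The pattern of Il6 was nearest to Ppbp (0.781) and Arg1 (0.780), and that of Il10 to Cd163 (0.797) and Folr2 (0.786), genes of Mφs.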

How the data were processed

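The values are single-cell RNA-seq counts made with a 10x 3′ kit. The authors deposited 1 table of UMI counts (genes by cells) per library, made with Cell Ranger 3.0.2 on GRCm38 (mm10) per the submitters' processing notes. The deposited cells had already been filtered: the fewest genes in a cell were 250 to 390 and the highest mitochondrial share 9.38% to 9.99%. The raw counts were used, and the authors' own cell type annotation was not used here.

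Cells were clustered with scanpy 1.11.5 and leidenalg 0.10.2 (Leiden resolution 1, 2000 variable genes without the members, 30 principal components, 20 neighbours, random seed 0), and clusters were named from marker lists only if at least 3 markers reached 20 CPM. UMIs were summed per class and library. Ratios carry exact conditional binomial intervals, shares exact Clopper-Pearson intervals and levels exact Poisson intervals (scipy 1.17.1, 95%). With 1 library per group no test was made. The interval and ratio code was tested on simulated data.

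The members and gene lists were chosen with earlier results of these data known. The genes named besides the members were up to 4 per list and comparison by size of the log2 ratio, the nearest genes by likeness, and leading genes of clusters. Doublets were kept, since Scrublet called 11 of 5811 cells, too few to have worked. Protein sequences and the promoters of Osm, Il10, Il23a and Nfkbiz were not used here. Alternatives covered clustering, gating, scaling, filters on cells and levels, and the size of a call.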

Additional observations from a re-analysis of the deposited data

Results flagged for a closer look

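Several members differed in opposite directions in the pair of libraries of one contrast, with both counting intervals clear of 0. With 1 library per group these differences between contrasts were not tested, and each pair of contrasts uses all 4 libraries. In Mφ-like cells, CCR2 KO against WT was 1.14 at 24 h and -0.99 at 72 h on the log2 scale for Tnf, and 0.62 and -0.55 for Osm. In neutrophil-like cells it was 0.86 and -2.31 for Il23a, 1.19 and -0.47 for Osm, and 0.17 and -0.34 for Nfkbia. In DC-like cells it was 0.68 and -1.14 for Nfkbia.

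From 24 h to 72 h, Osm in neutrophil-like cells was 0.79 in WT and -0.86 in CCR2 KO, and Nfkbia in DC-like cells was 0.48 in WT and -1.34 in CCR2 KO. The Tnf value in Mφ-like cells at 24 h lost its sign with clusters weighted equally (-0.05), and the Il23a value in neutrophil-like cells at 72 h rests on 9 WT and 8 KO UMIs.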

How the results depend on the processing

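No paired analysis was possible because each group has 1 library. Of the recomputed log2 ratios, 1069 stayed within their counting interval, 178 moved and 4 of those past 2-fold turned to the other sign. Those that stayed include 67 each from the 1.5-fold call, no minimum CPM and the minimum of 30 CPM. These settings change only which genes are called and cannot move a ratio. With clusters weighted equally, Mφ-like Tnf in KO against WT at 24 h was -0.047 and Mφ-like Il6 in WT over time was 0.37. Only clusters with at least 20 cells in both libraries entered this weighting, so it does not describe the whole class. DC-like Osm in KO against WT at 24 h was 0.39 as a mean of single-cell CPM. It was 1.93 without the Timp1-, Apoe- and Retnla-led clusters. Both intervals included 0 (-0.31 to 1.06 and -0.14 to 5.09). A count of members past 2-fold was taken to stay if it was within 1.5-fold of the reported count, so a larger count could still gain or lose a member. By that rule 178 counts stayed and 46 moved, as follows. In Mφ-like cells at 24 h the count of 1 became 2 at a 1.5-fold call and 0 with clusters weighted equally. At 72 h the count of 2 became 4 with median-ratio or TMM scaling, without the cell with most UMIs, and at 1.5-fold, and Nfkbia was -0.46 with clusters weighted equally, short of 2-fold. Over time, the WT count of 2 became 1 as a mean of single-cell CPM or at a minimum of 30 CPM and 0 with clusters weighted equally, and the KO count of 5 became 3 without the dividing cluster. In neutrophil-like cells at 24 h the count of 1 became 2 with a per-cell gate, at Leiden resolution 2, without the cell with most UMIs and as mean UMIs per cell, and 3 at 1.5-fold. At 72 h it went from 1 to 0 at Leiden resolution 2 or a minimum of 30 CPM, to 2 with median-ratio or TMM scaling, without the cell with most UMIs and with clusters weighted equally, and to 3 at 1.5-fold. Over time the WT count of 0 became 1 with a per-cell gate, each library clustered on its own, median-ratio or TMM scaling, without the cell with most UMIs and as mean UMIs per cell, and 2 at 1.5-fold and with clusters weighted equally. The KO count of 1 became 2 with a per-cell gate, each library on its own and clusters weighted equally, and 3 at 1.5-fold. In DC-like cells at 24 h the count of 2 became 0 with a per-cell gate. It became 1 with each library on its own, at most 5% mitochondrial UMIs, a mean of single-cell CPM and a minimum of 30 CPM. It was also 1 without the Timp1-, Apoe- and Retnla-led clusters. Over time the KO count of 2 became 1 at Leiden resolution 2, at most 5% mitochondrial UMIs, a minimum of 30 CPM, without the cell with most UMIs, with a pseudocount of 5 CPM and as mean UMIs per cell. The DC-like counts at 72 h and over time in WT stayed by the 1.5-fold rule. Single members still changed at 72 h: Nfkbia was -0.63 as mean UMIs per cell, short of 2-fold, and Tnf was -1.11 at Leiden resolution 2, past it. The settings of mean UMIs per cell and of clusters weighted equally or left out (dividing, or set apart by their leading genes) were chosen after seeing the data. So were those of cells left out for UMIs above 3 times the median or for non-immune and plasma cell markers, and of another random seed. Clusters could not be weighted equally for DC-like cells at 24 h or over time, nor for KO Mφ-like cells over time, where no cluster held enough cells in both libraries. The cause of these shifts was not tested. Depth limits Il10, Il12b and, outside Mφ-like cells, Il6.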

Other observations

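T cell-like cells held Nfkbia at 449, 496 and 608 CPM and Nfkbiz at 117, 182.5 and 80.4 CPM in CCR2 KO at 24 h, WT at 72 h and CCR2 KO at 72 h, while Osm was 38.1, 21.2 and 28.6 CPM in the same libraries. In whole libraries, which mix all classes, Osm stood at 193 and 531 CPM in WT and CCR2 KO at 24 h and at 134 and 116 CPM at 72 h, and Tnf at 82.8, 485, 60.3 and 207 CPM in the same order.

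Among neutrophil-like cells of the 24 h CCR2 KO library, a cluster led by Fnip2, Ccl3 and Mreg held Tnf at 1360 CPM and Il23a at 140 CPM, against 1075 and 74.0 CPM in the whole class.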
